A study of Mus musculus with 12 samples.

Results

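The genes described here are 10 components of the epithelial inflammasome and its pore-forming output: the sensors Nlrp6 and Nlrc4, the adaptor Pycard, the caspases Casp1 and Casp4, the cytokine Il18, and the gasdermins Gsdmd, Gsdmc2, Gsdmc3 and Gsdmc4. They were taken by gene symbol from a table of 38087 genes, and each symbol matched 1 gene. Their messenger RNA was measured by sequencing in colonic mucosa from mice, as 6 wild type and 6 Sgo1-/+ samples. The Sgo1-/+ genotype is heterozygous for the gene of shugoshin 1, which protects the cohesion of sister chromatids at the centromere. The series asks how chromosome instability affects the colon. Both genotypes had received azoxymethane, an alkylating colon carcinogen, at 4 mg/kg in 2 doses a week from week 8 to week 12 of life, and the mucosa was taken at 9 months, so no group without carcinogen entered the comparison. Whether each library stands for a different mouse is not in the labels, so p-values describe the spread among these samples, which may be technical.

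Inflammasomes are protein platforms that cells assemble on sensing microbial products or damage. A sensor recruits the adaptor ASC, encoded by Pycard, and ASC activates caspase-1, which cleaves the IL-18 precursor and gasdermin D, whose released fragment opens pores in the plasma membrane. In the intestine, enterocytes make the IL-18 precursor constitutively, and the Gsdmc genes are known for their induction by the type 2 cytokines IL-4 and IL-13 through STAT6. Activation itself runs through assembly and cleavage of proteins, which transcript levels do not show.

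The libraries held 5711553 to 10198304 counts. Sgo1 itself, listed as Sgol1, was between 1.49 and 6.80 CPM (counts scaled to a common library size) for wild type and between 1.84 and 2.77 CPM for Sgo1-/+, with a log2 change of -0.67 ± 0.32 (SE) and an adjusted p of 0.551 in edgeR's quasi-likelihood test, and the ranges overlapped. Epithelial markers were abundant, with all 8 tested and a summed level of 5884 to 8219 CPM for wild type and 6555 to 7794 CPM for Sgo1-/+. Leukocyte markers summed to 32.8 to 45.6 CPM for wild type and 30.8 to 46.6 CPM in Sgo1-/+, with 7 of 9 passing the filter on low counts, Itgax below it, and S100a8 below it and at 0 in every Sgo1-/+ library. Summed markers of proliferating crypt cells ran from 81.9 to 202 CPM for wild type and from 124 to 211 CPM for Sgo1-/+, and those of adipocytes, with 2 of 5 below the filter, from 2.02 to 60.1 and from 2.06 to 165 CPM, and the part of either in the results was not tested. Libraries stood apart in 3 ways. The rows Gm13340, Gm13341 and Gm11410, whose transcripts resemble mitochondrial ones, took 37.4% to 38.8% of counts in 3 libraries (wild type replicates 3 and 5, Sgo1-/+ replicate 3), and 10.5% to 22.3% in the other 9 libraries. Hoxb13, a homeobox gene of the distal colon, was at 140.2 to 187 CPM in Sgo1-/+ replicates 2, 4 and 5, and at 23.1 to 65.9 CPM in the other 9. The adipocyte markers were at 113 to 165 CPM in Sgo1-/+ replicates 1, 4 and 6, and at 60.1 CPM or less in the other 9.

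No member passed the threshold for a difference between the genotypes. All 10 were tested, with log2 changes (Sgo1-/+ minus wild type) from -0.53 to 0.55 and adjusted p from 0.553 to 0.986 in edgeR, and the CPM of the genotypes overlapped for every member. Of the 10, 4 had a positive and 6 a negative log2 change, with a median of -0.052. Among all 13889 genes tested, 6799 were positive and 7090 negative, with a median of -0.0057, and 0% were called at an adjusted p under 0.05. Neither did any member reach an unadjusted p of 0.05, where 9.04% of all genes did, or a call in DESeq2, where 0.217% of genes were called. The share of all genes whose CPM did not overlap between the genotypes was 0.346%, against 0 of the 10 members. Scaling by library totals alone raised the median log2 change of all genes by 0.32, with 11624 genes positive and 2265 negative, and 8 of the 10 members were then positive. In such bulk samples, fewer cells of a type and less RNA per cell cannot be told apart.

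**Figure D1:**
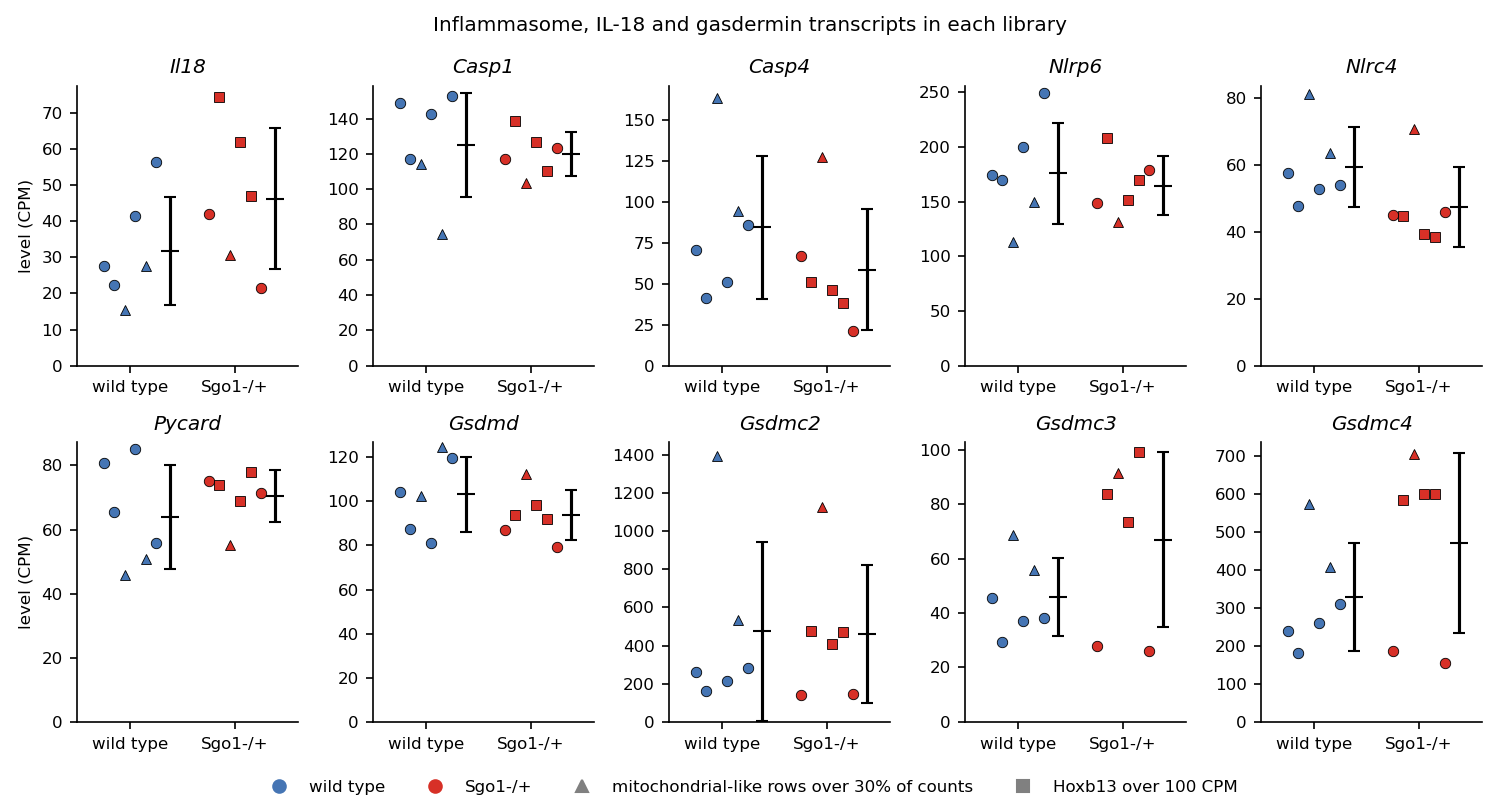
Level of each transcript in CPM (linear axes from 0) in the 6 wild type (blue) and 6 Sgo1-/+ (red) libraries, with the mean and SD of each genotype as the black bar. Triangles are the 3 libraries richest in mitochondrial-like rows and squares the 3 Sgo1-/+ libraries with Hoxb13 at 140.2 to 187 CPM. The genotypes overlap in all 10 panels.

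Per kilobase of exon, the set spanned more than an order of magnitude. The median over the 12 libraries was 172.5 CPM per kb for Gsdmc4 and 149 for Gsdmc2. It was 80.3 for Casp1, 40.4 for Gsdmd, 35.0 for Il18 and 33.4 for Nlrp6, and then 21.8 for Gsdmc3, 18.4 for Pycard, 16.0 for Casp4 and 10.4 for Nlrc4. The exon length used for Pycard, 3800 bases from GENCODE M21, exceeds its whole deposited interval (chr7:127992103-127993867). Its value per kb may therefore be too low, and its place in this order is not settled. Neighbours in this order overlapped across the libraries: Gsdmc4 ran from 74.0 to 338 and Gsdmc2 from 60.7 to 603 CPM per kb, Il18 from 14.9 to 72.2 and Nlrp6 from 22.3 to 49.0. Nlrc4, at 7.97 to 16.9, lay below the lowest Casp1 and Gsdmd libraries, at 49.9 and 33.3 CPM per kb.

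Of the sensors, Nlrp6 lies at chr7:140920902-140928540 (plus strand, mm10) and encodes a NOD-like receptor of the intestinal epithelium. Its level in wild type ran from 113 to 249 CPM with a median of 172, and in Sgo1-/+ from 131 to 208 CPM with a median of 160.5. Means were 176 ± 46.0 and 165 ± 26.9 CPM (SD, n = 6 each), with a log2 change of -0.096 ± 0.17 (SE, edgeR adjusted p = 0.877), smaller than the spread within either genotype. Without wild type replicate 6, the highest library, the change was 0.031, so its sign rests on that library.

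Nlrc4 (chr17:74426295-74459108, minus strand) encodes the sensor that assembles with NAIP proteins on bacterial flagellin and secretion system parts. Its levels were 57.4, 47.7, 81.2, 52.7, 63.5 and 53.8 CPM in wild type replicates 1 to 6, and 44.8, 44.6, 70.7, 39.4, 38.3 and 45.9 CPM in Sgo1-/+ replicates 1 to 6. Sgo1-/+ replicate 3 stood well above the other Sgo1-/+ libraries, and wild type replicate 3 was the highest of its genotype. Outside the 3 libraries richest in mitochondrial-like rows, a split chosen after the data were seen, wild type ran from 47.7 to 57.4 CPM and Sgo1-/+ from 38.3 to 45.9 CPM. Nlrc4 was the 1 member of 10 that did not overlap there, where 3.08% of all genes did not. Over all 12 libraries the log2 change was -0.33 ± 0.16 (SE, edgeR p = 0.0658, adjusted p = 0.553), and the exact two-sided permutation p of the difference in mean log2 CPM was 0.0801. Leaving out Sgo1-/+ replicate 3 gave a difference of -0.46 and an exact permutation p of 0.00433, not adjusted. This p was the lowest of any member with 1 library left out, and the edgeR adjusted p in that setting was 0.138. Leaving out the 3 rich libraries gave an edgeR log2 change of -0.30 (unadjusted p = 0.0111, adjusted p = 0.331). In that fit 11.6% of all genes had an unadjusted p under 0.05. With the share of mitochondrial-like rows as a covariate the change was -0.13 (edgeR adjusted p = 0.664), and under library totals alone it was -0.0090.

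Pycard (chr7:127992103-127993867, minus strand), the gene of the adaptor ASC, was at 45.7 to 85.3 CPM in wild type with a median of 60.6, and at 55.2 to 78.0 CPM in Sgo1-/+ with a median of 72.6. Wild type replicates 3 and 5 and Sgo1-/+ replicate 3, the libraries richest in mitochondrial-like rows, had the lowest values of their genotypes, at 45.7, 50.9 and 55.2 CPM. The log2 change was 0.14 ± 0.16 (SE, edgeR adjusted p = 0.798), and -0.016 with the share of those rows as a covariate. Of the 50-base stretches of Pycard's exons in GENCODE M21, 11.7% also occur in Mvp or Gm45205, so part of its count may be shared. Those exons, 3800 bases, are longer than the interval given above, so it is not known whether these stretches were counted.

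Casp1 and Casp4 are neighbours on chromosome 9, at chr9:5298517-5307265 and chr9:5308828-5336783 (both plus strand). Casp1 encodes the protease that matures IL-18. Its level was 74.7 to 152.5 CPM for wild type and 103 to 139 CPM in Sgo1-/+, with medians of 130 and 120.2. Its means of 125 ± 29.5 and 119.9 ± 12.5 CPM (SD, n = 6 each) differed by -0.060 ± 0.16 (log2, SE, edgeR adjusted p = 0.922). Without wild type replicate 6 the change was 0.0071.

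Casp4 encodes mouse caspase-11, which binds bacterial lipopolysaccharide in the cytosol and cleaves gasdermin D. Its levels were 71.0, 41.2, 164, 51.2, 94.7 and 86.2 CPM in wild type replicates 1 to 6, and 67.3, 51.1, 128, 46.4, 38.1 and 21.1 CPM in Sgo1-/+ replicates 1 to 6. The highest library of each genotype was replicate 3, and wild type replicate 5 came next. The means were 84.7 ± 43.8 and 58.6 ± 37.1 CPM (SD, n = 6 each), and the log2 change of -0.53 ± 0.40 (SE) had an edgeR adjusted p of 0.696. With the share of mitochondrial-like rows as a covariate it was -0.065. The ratio of the Casp4 to the Casp1 level in CPM was 1.24 to 1.44 in the 3 rich libraries and 0.171 to 0.575 in the other 9, so the adjacent genes did not keep a fixed ratio across libraries.

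Il18 (chr9:50575273-50581837, plus strand) encodes the precursor of interleukin-18, a cytokine of mucosal barrier defence. It was at 27.6, 22.2, 15.3, 41.4, 27.5 and 56.4 CPM in wild type replicates 1 to 6, and at 42.0, 74.4, 30.7, 62.0, 46.8 and 21.5 CPM in Sgo1-/+ replicates 1 to 6. Of the Sgo1-/+ libraries, 5 of 6 lay above the wild type median of 27.5 CPM, and the remaining one, replicate 6, was below it. The Sgo1-/+ mean was 46.2 ± 19.6 CPM against 31.7 ± 14.8 CPM in wild type (SD, n = 6 each). This gave the second largest positive log2 change of the set, 0.54 ± 0.33 (SE), with an edgeR adjusted p of 0.631 and an exact two-sided permutation p of 0.178 for the difference in mean log2 CPM.

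Il18 also varied with other properties of the libraries. The 3 Sgo1-/+ libraries with high Hoxb13 had 46.8 to 74.4 CPM of Il18, and with the log2 level of Hoxb13 as a covariate, chosen after the data were seen, the genotype change was 0.10 (edgeR adjusted p = 0.944). No wild type library had high Hoxb13, so Hoxb13 and genotype cannot be fully told apart in that fit. Among the 9 libraries with Hoxb13 at 65.9 CPM or less, Il18 and Hoxb13 correlated with Pearson's r = 0.78 (exact permutation p = 0.0137) and Spearman's rho = 0.67 (exact permutation p = 0.0589). Adjusted over the 47 relations computed, this r had a permutation p of 0.0643, and it was 0.54 without the 2 libraries farthest from the median of Hoxb13, so the relation rests in part on those. The libraries fall into separate ranges of Hoxb13, so no r across both ranges is given, and Il18 was at 15.3 to 56.4 CPM in these 9 libraries, overlapping the 3 with high Hoxb13. Files also differ in the name of the value column, which carries a suffix in 4 libraries (wild type 1 and 6, Sgo1-/+ 5 and 6). Among the 4 against 4 libraries without it the Il18 difference was 0.98 (exact permutation p = 0.0571, smallest possible 0.0286), and among the 2 against 2 with it -0.31 (exact permutation p = 0.667, smallest possible 0.333), so the direction was not the same in both.

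**Figure D2:**
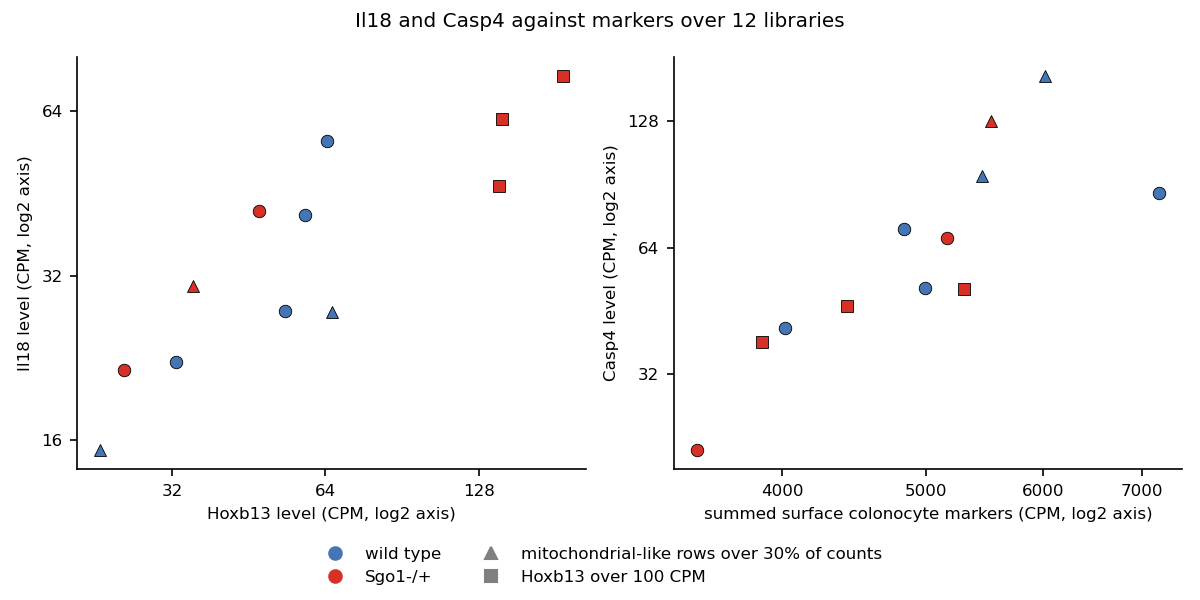
Left, Il18 against Hoxb13, and right, Casp4 against the summed level of 8 surface colonocyte markers, each point 1 library, all axes in CPM on a log2 scale. Colours and symbols are those of the plot of levels by library. The library with the most Hoxb13, Sgo1-/+ replicate 2, also has the most Il18, and Casp4 and the surface markers correlate with r = 0.83.

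Gsdmd (chr15:75862339-75867404, plus strand) encodes the gasdermin cleaved by caspase-1 and caspase-11. It ran from 81.1 to 124.5 CPM for wild type and from 79.2 to 112.5 CPM in Sgo1-/+, with medians of 103 and 93.0, the narrowest range of the set relative to its level over all 12 libraries, though within Sgo1-/+ those of Casp1 and Pycard were narrower. The means of 103 ± 17.1 and 93.8 ± 11.2 CPM (SD, n = 6 each) gave a log2 change of -0.14 ± 0.12 (SE, edgeR adjusted p = 0.742). No relation of Gsdmd with Il18 was detectable over the 12 libraries (r = 0.023, permutation p = 0.941, rho = 0.070), and r was -0.053 without the 2 libraries farthest from the median.

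The Gsdmc genes form a cluster on the minus strand of chromosome 15, with Gsdmc2 at chr15:63824346-63835949, Gsdmc3 at chr15:63858271-63869297, Gsdmc4 at chr15:63891265-63902936 and a further gene, Gsdmc, at chr15:63775971-63808759. They are shown as sequence because near-identity between them limits how far their counts can be separated. In GENCODE M21 the coding sequences of Gsdmc2 and Gsdmc3 were 97.1% identical, those of Gsdmc4 93.5% identical to Gsdmc2 and 93.4% to Gsdmc3, and that of Gsdmc 86.1% to 86.4% identical to the other 3. Of all 50-base stretches of their exons, 51.3% for Gsdmc2, 46% for Gsdmc3, 39% for Gsdmc4 and 16.1% for Gsdmc also occurred in another gene. The first window below, from exon 2 of Gsdmc2 (chr15:63834971-63835060, coding bases 256 to 345), is letter for letter the same in Gsdmc3 (chr15:63868324-63868413) and Gsdmc4 (chr15:63901957-63902046). Gsdmc (chr15:63803617-63803706, exon 3) differs from them at the 20 positions in capitals.
Gsdmc2, Gsdmc3 and Gsdmc4: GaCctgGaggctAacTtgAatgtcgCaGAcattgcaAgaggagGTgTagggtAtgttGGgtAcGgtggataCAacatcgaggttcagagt
Gsdmc: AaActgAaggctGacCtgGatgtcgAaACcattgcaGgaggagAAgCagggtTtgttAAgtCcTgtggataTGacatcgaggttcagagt

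The second window is the stretch of the same length where the 3 members differ most, in exon 8 of Gsdmc2 (chr15:63826834-63826923), Gsdmc3 (chr15:63860264-63860353) and Gsdmc4 (chr15:63893781-63893870) and exon 9 of Gsdmc (chr15:63778610-63778699). Capitals mark the 18 positions at which the 4 genes are not all alike. Each line is written 5′ to 3′ on the coding strand in mm10. A read that lies within the first window fits all 3 members equally, whereas one that spans the second carries letters that tell them apart.
Gsdmc2: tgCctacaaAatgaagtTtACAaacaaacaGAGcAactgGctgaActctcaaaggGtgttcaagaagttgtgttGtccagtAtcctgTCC
Gsdmc3: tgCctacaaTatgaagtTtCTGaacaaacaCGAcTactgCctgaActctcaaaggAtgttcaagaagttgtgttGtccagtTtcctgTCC
Gsdmc4: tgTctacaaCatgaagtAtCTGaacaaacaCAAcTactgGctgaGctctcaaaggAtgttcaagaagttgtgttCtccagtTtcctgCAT
Gsdmc: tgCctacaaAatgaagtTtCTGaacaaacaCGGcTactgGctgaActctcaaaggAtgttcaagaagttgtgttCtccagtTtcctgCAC

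Gsdmc2 was the most variable member. Its levels were 264, 162, 1396, 215, 536 and 283.5 CPM in wild type replicates 1 to 6, and 141, 479, 1126, 406.5, 470.2 and 146 CPM in Sgo1-/+ replicates 1 to 6. Replicate 3 was far above the rest in both genotypes. The means of 476 ± 469 CPM for wild type against 461 ± 359.8 CPM for Sgo1-/+ (SD, n = 6 each) had SDs close to the means themselves. The log2 change was -0.045 ± 0.59 (SE, edgeR adjusted p = 0.986), and the difference in mean log2 CPM was 0.020 (exact permutation p = 0.976). The edgeR value was 0.67 without wild type replicate 3, 0.15 without Sgo1-/+ replicate 1 or 6, and -0.53 at the lowest when another library was left out, so no direction can be given.

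Gsdmc3, closest in sequence to Gsdmc2, was the least abundant of the 3 members of the cluster. It was at 45.6, 29.5, 68.6, 37.2, 56.0 and 38.3 CPM in wild type replicates 1 to 6, and at 28.0, 83.7, 91.5, 73.4, 99.1 and 25.9 CPM in Sgo1-/+ replicates 1 to 6. The Sgo1-/+ libraries split into 4 above every wild type library and 2, replicates 1 and 6, below every wild type library. Means were 45.9 ± 14.3 and 66.9 ± 32.1 CPM (SD, n = 6 each), and the log2 change of 0.55 ± 0.33 (SE) had an edgeR adjusted p of 0.631.

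Gsdmc4 showed the same split in the Sgo1-/+ group. Its levels were 240.3, 181, 574, 259, 409 and 311 CPM in wild type replicates 1 to 6, and 187, 583, 706, 599.2, 599.3 and 154.5 CPM in Sgo1-/+ replicates 1 to 6. Sgo1-/+ replicates 2 to 5 all exceeded the highest wild type library, replicate 3, while Sgo1-/+ replicates 1 and 6 lay among or below the lowest wild type libraries. The means were 329 ± 142 and 472 ± 237 CPM (SD, n = 6 each), with a log2 change of 0.52 ± 0.38 (SE, edgeR adjusted p = 0.693).

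**Figure D3:**
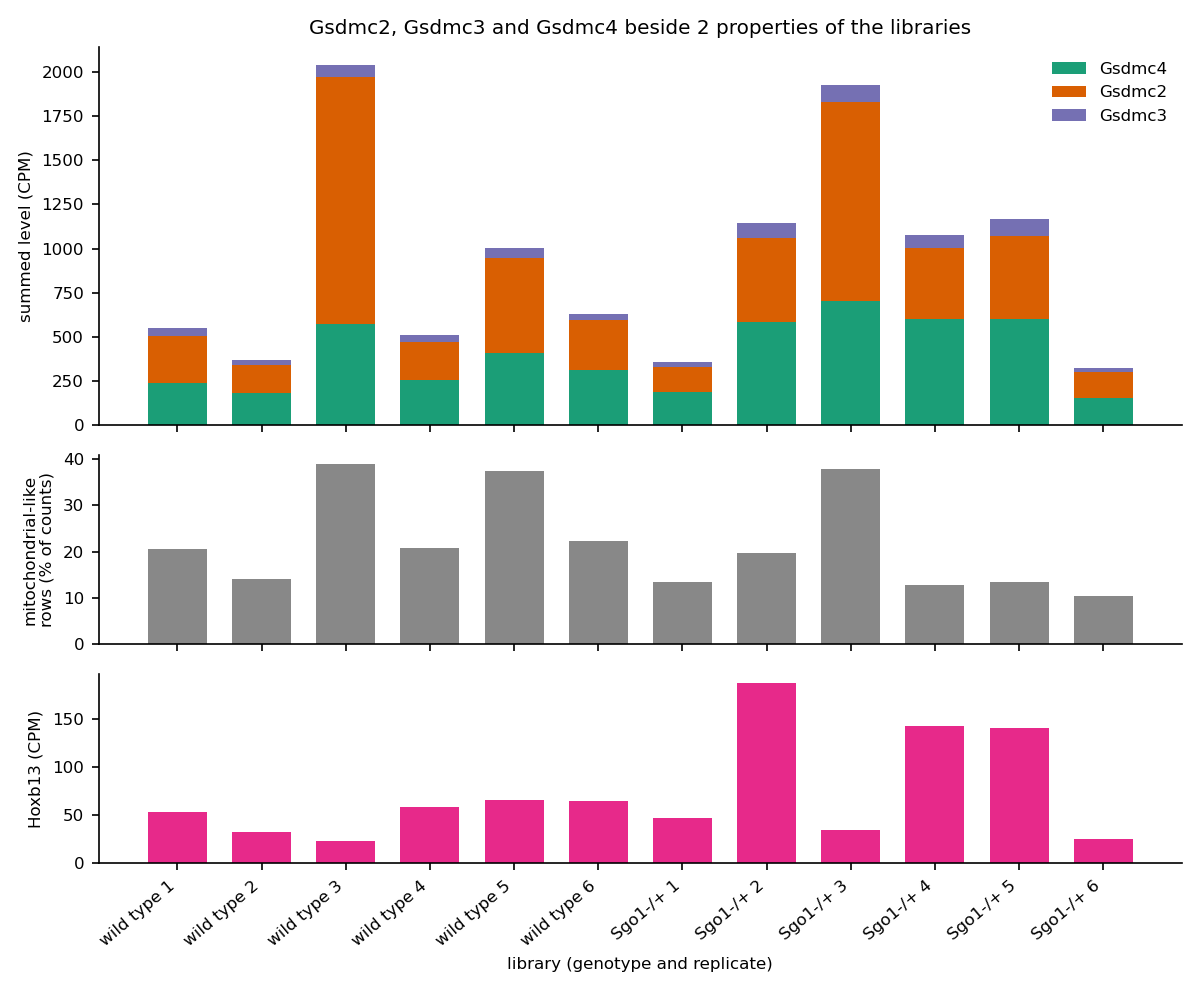
Upper panel, summed level of Gsdmc4, Gsdmc2 and Gsdmc3 in CPM in each of the 12 libraries as stacked bars. Middle panel, share of counts in the mitochondrial-like rows, and lower panel, level of Hoxb13 in CPM, for the same libraries. The 6 libraries that are high in either lower panel are the 6 with summed levels of 1001 to 2038 CPM, and the other 6 lie between 326 and 632 CPM.

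Summed over Gsdmc2, Gsdmc3 and Gsdmc4, the 12 libraries fell into a high and a low range that crossed the genotypes. Wild type replicates 3 and 5 and Sgo1-/+ replicate 3, rich in mitochondrial-like rows, were at 2038, 1001 and 1923 CPM, and Sgo1-/+ replicates 2, 4 and 5, high in Hoxb13, at 1146, 1079 and 1169 CPM. The remaining 4 wild type libraries were at 372 to 632 CPM and the remaining 2 Sgo1-/+ libraries, replicates 6 and 1, at 326 and 356 CPM. Those 2 had adipocyte markers at 131 and 113 CPM, but so had Sgo1-/+ replicate 4 of the high range, at 165 CPM, and the part of this in the values was not tested. The mixture of the 3 transcripts differed between the 2 kinds of high library. In the rich ones Gsdmc2 was 53.5% to 68.5% of the sum and 1.31 to 2.43 times Gsdmc4, whereas in the other 9 libraries, those high in Hoxb13 included, it was 37.7% to 48.0% of the sum and 0.679 to 1.10 times Gsdmc4. The ratio of Gsdmc3 to Gsdmc4 stayed between 0.120 and 0.190 in all 12.

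The genotype values of the cluster moved with both properties. With the share of mitochondrial-like rows as a covariate the log2 changes were 0.87 for Gsdmc2, 0.86 for Gsdmc3 and 0.95 for Gsdmc4, with edgeR unadjusted p of 0.0211, 0.0149 and 0.0123 and adjusted p of 0.415, 0.385 and 0.381. These were the 3 members of 10 with an unadjusted p under 0.05 in that fit, which 10.1% of all genes had. Without the 3 rich libraries the changes were 0.52, 0.73 and 0.79. Hoxb13 was high only in Sgo1-/+ libraries, so as a covariate it cannot be fully told apart from genotype. With it the changes were 0.31, 0.33 and 0.36, and none of the 3 members was called by edgeR in either fit. Without the 3 libraries highest in adipocyte markers, also chosen after the data were seen, they were 0.54, 1.01 and 0.94, with edgeR adjusted p of 1, 0.810 and 1. That choice removed Sgo1-/+ replicates 1 and 6, the Sgo1-/+ libraries of the low range. The Sgo1-/+ libraries kept were all of the high range, so higher values were in part built into it.

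**Figure D4:**
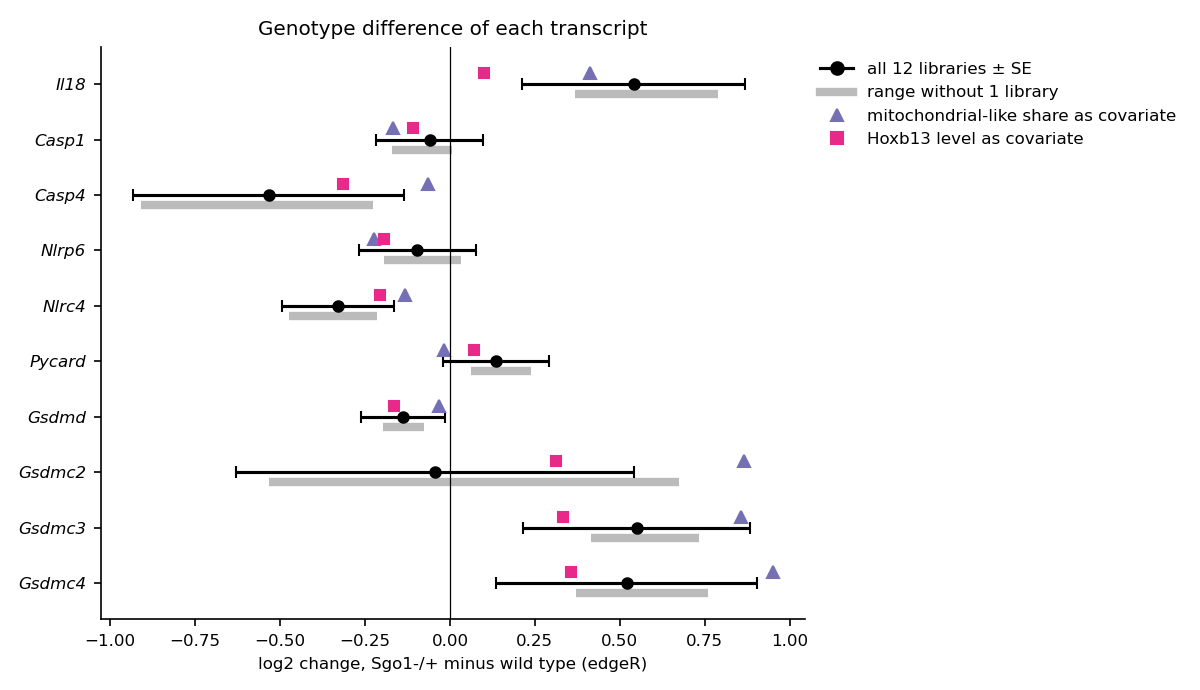
Log2 change of each transcript, Sgo1-/+ minus wild type, in edgeR. Black points and bars are the estimate over 12 libraries with its SE, grey bars the range when 1 library is left out, violet triangles and pink squares the estimate with the share of mitochondrial-like rows or the Hoxb13 level as a covariate. Gsdmc2 spans -0.53 to 0.67 when 1 library is left out, and Il18 moves from 0.54 to 0.10 with Hoxb13 as the covariate. Hoxb13 is high only in Sgo1-/+ libraries, so that fit cannot fully separate it from genotype.

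The 3 Gsdmc members varied together. Over 12 libraries, log2 CPM of Gsdmc3 and Gsdmc4 correlated with r = 0.97 (permutation p = 1e-05, the smallest the permutations can give) and rho = 0.96, and r was 0.97 without the 2 libraries farthest from the median and after centring on each genotype. For Gsdmc2 the r was 0.84 with Gsdmc3 (permutation p = 9.0e-04) and 0.89 with Gsdmc4 (permutation p = 1.0e-04), with rho of 0.83 and 0.82. Among the 9 libraries not rich in mitochondrial-like rows all 3 pairs had r of 0.97, with adjusted exact permutation p of 0.0040 or less over the 47 relations. Within the 6 libraries of the low range r was 0.93 for Gsdmc2 and Gsdmc3, 0.91 for Gsdmc2 and Gsdmc4, and 0.82 for Gsdmc3 and Gsdmc4, with exact permutation p of 0.0222, 0.0333 and 0.0583, none of which passed adjustment. Reads of shared stretches may enter more than 1 of these counts, and the part of that in the correlations was not tested.

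In the same 6 libraries, high in neither mitochondrial-like rows nor Hoxb13, Hoxb13 correlated with Gsdmc4, Gsdmc3 and Gsdmc2 at r = 0.92, 0.77 and 0.76, with exact permutation p of 0.00417, 0.0847 and 0.0917 and adjusted p of 0.0979, 0.221 and 0.227. The share of mitochondrial-like rows in those 6 libraries gave r of 0.97 with Gsdmc4, 0.92 with Gsdmc3 and 0.94 with Gsdmc2, where the smallest adjusted exact permutation p of the 3 was 0.131. None of these values in 6 libraries passed adjustment over the 47 relations. The share was 20.6% to 22.3% in wild type replicates 1, 4 and 6. In wild type replicate 2 and Sgo1-/+ replicates 1 and 6 it was 10.5% to 14.15%. A relation with the share within these 6 therefore cannot be told apart from a contrast of those ranges or from genotype. Across high and low Hoxb13, or across rich and other libraries, no r with either property is given, and the levels themselves are set side by side. In the 9 libraries with low Hoxb13, of which 3 are rich in mitochondrial-like rows, the levels of Gsdmc2, Gsdmc3 and Gsdmc4 in those 3 (536 to 1396, 56.0 to 91.5 and 409 to 706 CPM) lay above those in the other 6 (141 to 283.5, 25.9 to 45.6 and 154.5 to 311 CPM). The 3 libraries with high Hoxb13, at 406.5 to 479, 73.4 to 99.1 and 583 to 599.3 CPM, also lay above those 6 for all 3 genes.

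For the sensors and caspases, the relation to mitochondrial-like rows was not of 1 kind. In the 3 rich libraries Casp4 and Nlrc4 were higher than in any of the other 9, at 94.7 to 164 against 21.1 to 86.2 CPM and at 63.5 to 81.2 against 38.3 to 57.4 CPM. Casp1 and Nlrp6 went the other way, at 74.7 to 114 CPM in the rich libraries against 110.5 to 152.5 CPM in the other 9, and at 113 to 149.6 against 149 to 249 CPM, with a small overlap for each. Pycard was lower in the rich libraries without overlap, at 45.7 to 55.2 against 55.7 to 85.3 CPM. The 9 libraries that are not rich also leave a gap in the share. It was 10.5% to 14.15% in wild type replicate 2 and Sgo1-/+ replicates 1, 4, 5 and 6. In wild type replicates 1, 4 and 6 and Sgo1-/+ replicate 2 it was 19.8% to 22.3%. An r over these 9 spans that gap, so it cannot be told apart from a contrast of those ranges, which differ in genotype. For Casp1 the r of the log2 level with the share was 0.87 (exact permutation p = 0.0071, adjusted 0.0372). Its rho was 0.68 (exact permutation p = 0.0503), and r was 0.79 without the 2 farthest libraries. Casp1 was at 139 to 152.5 CPM in the range of higher share and at 110.5 to 127 CPM in that of lower share. The sign of this r is opposite to the lower level of Casp1 in the rich libraries. The same holds for Nlrp6, at r = 0.75 (adjusted exact permutation p = 0.076). Casp4 and Nlrc4 had r of 0.73 and 0.72 among the 9 (adjusted exact permutation p of 0.076 and 0.124), the direction of their higher levels in the rich libraries. Pycard had an r of -0.030 there (exact permutation p = 0.942).

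Casp4 was the member most closely related to markers of surface colonocytes, the differentiated cells at the top of the crypt. The 8 markers summed to 4019 to 7184 CPM for wild type and 3502 to 5536 CPM in Sgo1-/+, and all 8 passed the filter. Over 12 libraries their sum and Casp4 correlated with r = 0.83 (permutation p = 0.0011, adjusted 0.0073) and rho = 0.90 (adjusted permutation p = 0.0052), and r was 0.85 without the 2 farthest libraries and 0.80 after centring on genotype. Among the 9 libraries not rich in mitochondrial-like rows r was 0.88 (exact permutation p = 0.0035, adjusted 0.0217), and 0.76 without the 2 farthest of these. The part of surface cells in the Casp4 values of the genotypes was not tested. No other member passed adjustment with these markers over 12 libraries, the nearest being Gsdmd (r = 0.69, adjusted permutation p = 0.058), and none did with the leukocyte markers, where r ran from -0.24 to 0.55.

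None of the 4 relations of Il18 with other members that were computed passed adjustment. Beside that with Gsdmd, its r over 12 libraries was 0.37 with Casp1 (permutation p = 0.241), 0.58 with Nlrp6 (permutation p = 0.0498, adjusted 0.167, and r of 0.24 without the 2 farthest libraries) and -0.12 with Gsdmc2 (permutation p = 0.699). The sign of the last turned to 0.51 without the 2 farthest libraries, and among the 9 libraries not rich in mitochondrial-like rows it was 0.74 (adjusted exact permutation p = 0.0992). By the Pearson correlation of log2 CPM over 12 libraries, the genes most like Il18 among 9159 were Sval1 (0.95), Ggh, Thbs4, Hif1a and Pdk1 (each 0.92). Hif1a encodes the oxygen-sensitive subunit of hypoxia-inducible factor and Pdk1 a kinase that restrains pyruvate dehydrogenase. For the summed Gsdmc members they were Gsdmc (0.98) and GSDMCL2 (0.97), both gasdermin C genes of chromosome 15, then St3gal6 (0.94), Pla2g4c and Ovol2 (each 0.92). They were selected for this likeness, so the values are descriptions. Gsdmc shares 16.1% of its 50-base stretches with other genes, mostly Gsdmc2, Gsdmc4 and Gsdmc3. GSDMCL2 was not examined for this, and the part of shared reads in these 2 likenesses was not tested.

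The other genes of the pathway gave the background to the members. Of 49 genes listed by role, 48 were found, with Gsdme listed as Dfna5 and Il36g as Il1f9. No row carried the symbol Irgb10, and no other name was searched for that gene. Of the 48 genes, 34 passed the filter on low counts, and 14 had a positive and 20 a negative log2 change, with a median of -0.057. None was called by edgeR or DESeq2, and 3 had an unadjusted edgeR p under 0.05, against 9.04% of all genes.

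Among 12 other sensors, 9 were tested, 3 positive and 6 negative. The NAIP proteins bind flagellin and needle proteins and then assemble with the Nlrc4 protein. Their genes were abundant, with wild type and Sgo1-/+ means of 218 and 189 CPM for Naip1, 155 and 154 for Naip6, 66.5 and 64.1 for Naip2, and 53.3 and 55.6 for Naip5. Naip1 to Naip6 share 19.1% to 36.9% of their 50-base stretches with other genes. Aim2, a sensor of cytosolic DNA, averaged 57.3 and 52.0 CPM, Nlrp9b, a sensor of viral RNA in the gut epithelium, 39.1 and 26.7, Nlrp1b 20.4 and 16.3, Nlrp10 3.52 and 4.88, and Nlrp1a 1.23 and 1.71. Nlrp3, Nlrp12 and Mefv, sensors best known from myeloid cells, were below the filter.

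**Figure D5:**
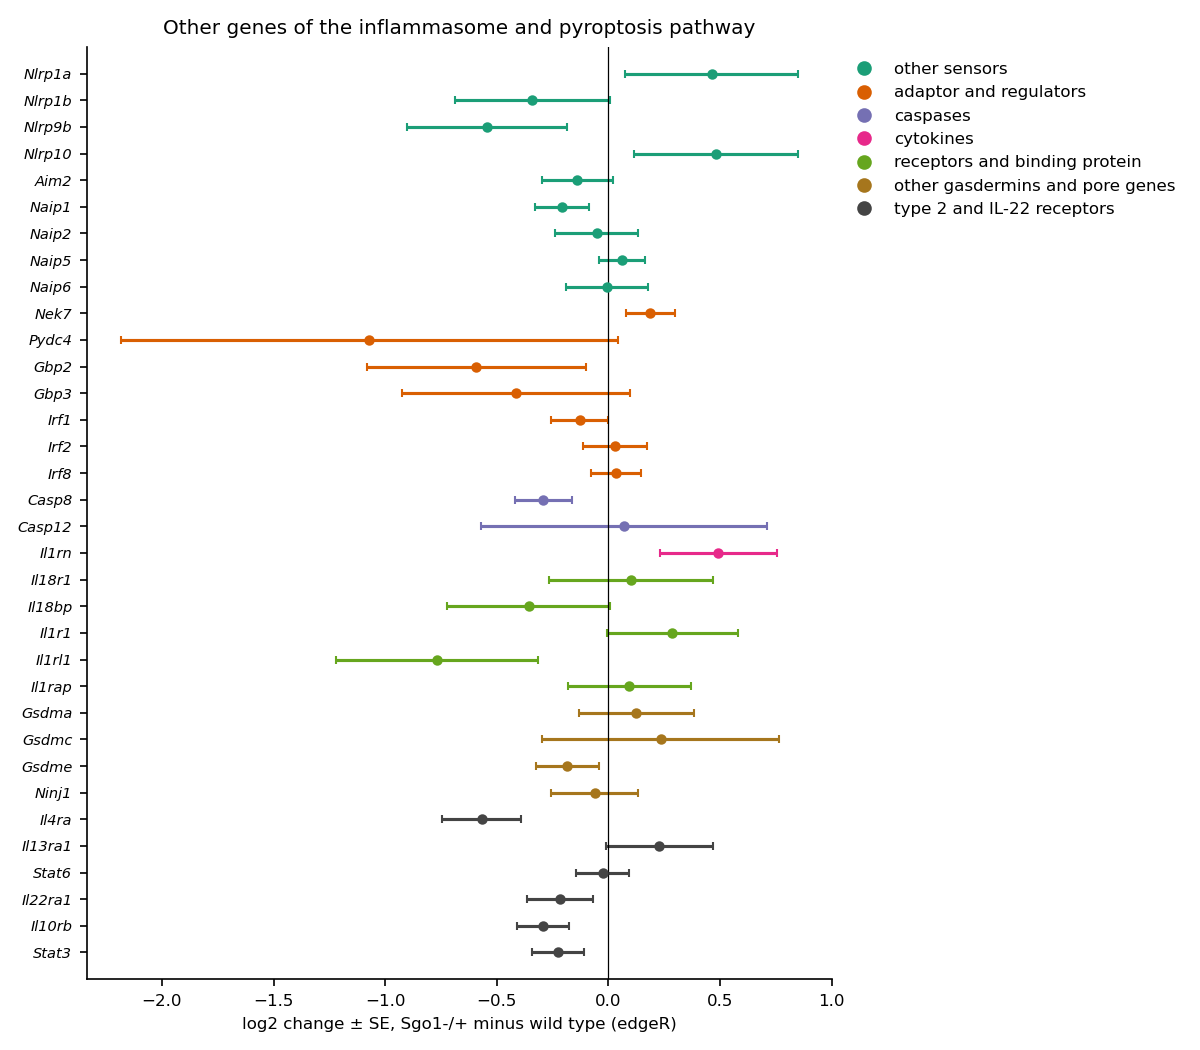
Log2 change, Sgo1-/+ minus wild type, with its SE in edgeR for the 34 tested genes of the wider inflammasome and pyroptosis list, coloured by role. Of the 34 estimates 14 lie above 0 and 20 below, Il4ra is the farthest from 0 relative to its SE, and Pydc4 has the widest SE.

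Of the regulators, 7 of 11 were tested. Nek7, a kinase that Nlrp3 needs, averaged 35.9 and 40.9 CPM for wild type and Sgo1-/+. The interferon regulatory factor genes Irf1, Irf2 and Irf8 averaged 131 and 119.7, 77.6 and 79.1, and 37.3 and 38.3 CPM, and the guanylate-binding protein genes Gbp2 and Gbp3 13.3 and 8.92, and 2.62 and 2.01 CPM. Pydc4, of the pyrin-domain family, ranged from 16.6 to 193 CPM for wild type and from 0.826 to 152 CPM in Sgo1-/+, with medians of 37.6 and 3.59. This spread left its edgeR log2 change of -1.07 ± 1.11 (SE, adjusted p = 0.772) undetermined. The difference in mean log2 CPM was -2.89 (exact permutation p = 0.0628, not adjusted), so its size depended on the measure. Among the other caspases, Casp12 averaged 2.09 and 2.21 CPM. Casp8, which starts extrinsic apoptosis, averaged 86.6 ± 13.4 against 70.8 ± 11.3 CPM (SD, n = 6 each). Its log2 change was -0.29 ± 0.13 (SE), with an edgeR p of 0.0384, and 0.536 after adjustment.

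Of 5 other cytokines, 1 was tested. Il1rn, the IL-1 receptor antagonist, was at 25.3 ± 6.81 CPM for wild type against 35.5 ± 12.0 CPM for Sgo1-/+ (SD, n = 6 each), with a log2 change of 0.49 ± 0.26 (SE, edgeR adjusted p = 0.582). Il1a, Il1b, Il33 and Il36g were below the filter, at a mean of 1.37 CPM or less in either genotype. Il18r1, a chain of the IL-18 receptor, ran from 1.07 to 8.29 CPM in wild type and from 3.76 to 8.39 CPM in Sgo1-/+ libraries. The gene of the soluble decoy for IL-18, Il18bp, averaged 4.51 and 3.58 CPM, Il1r1 9.76 and 11.9, Il1rap 4.99 and 5.32, and Il1rl1, the receptor for IL-33, 2.43 and 1.39 CPM. Of other pore genes, Gsdme averaged 27.0 and 23.8 CPM, Gsdmc 18.9 and 22.2, Ninj1, which ruptures the membrane late in pyroptosis, 9.76 and 9.28, and Gsdma 2.29 and 2.48.

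Of 6 genes that act upstream of the Gsdmc genes or of Il18, the 4 receptor chains and the transcription factors Stat3 and Stat6, 5 had a negative log2 change. Il4ra, the shared receptor chain for IL-4 and IL-13, was at 17.1 to 31.2 CPM in wild type with a median of 25.2, and at 11.9 to 19.7 CPM in Sgo1-/+. The ranges overlapped, and the log2 change of -0.57 ± 0.18 (SE) had an edgeR p of 0.00678 and an adjusted p of 0.501. Il10rb, the chain that IL-22 and IL-10 receptors share, averaged 62.6 ± 9.98 and 51.1 ± 4.25 CPM (SD, n = 6 each). Its log2 change was -0.29 ± 0.12 (SE), with an edgeR p of 0.0249, and 0.530 after adjustment. Il22ra1 averaged 84.3 and 72.5 CPM, Stat3 83.6 and 71.5, Stat6 61.5 and 60.5, and Il13ra1 76.2 and 89.3.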

How the data were processed

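Messenger RNA purified from colonic mucosa was made into TruSeq V2 libraries and sequenced on a MiSeq, per the labels' protocols. Build mm10 and DESeq are named in the submitters' processing notes. Aligner, counter, use of strand and treatment of reads that fit several genes: not given in the sources used here.

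All files had 38592 rows. The raw column deposited by the authors was taken to hold estimated counts, since 69.6% of values above 0 were not whole (tolerance 0). The second column, log2 values deposited by the authors, was recomputed from the raw columns for 100% of 463104 values within 0.001 and was not used for tests. Counts were rounded, and 505 rows without an Ensembl identifier, 1.79% to 5.40% of counts, were left out. Value columns were joined by gene identifier. Replicates differed by a chi-square per degree of freedom of at least 14.7, so each library was counted once.

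edgeR 4.0.16 in R 4.3.3 (glmQLFit, glmQLFTest, TMM, filterByExpr at a minimum count of 10 and total of 15) was fitted to the 13889 genes that passed, with Benjamini-Hochberg adjustment and a threshold of 0.05. CPM are TMM-scaled, log2 CPM used a prior count of 2, and the SE of a log2 change is its size over the square root of F. Differences in mean log2 CPM were tested exactly by permutation (two-sided, 924 splits), and relations by 100000 permutations, exactly within 9 or 6 libraries. DESeq2 1.42.0, limma-voom 3.58.1 and other scalings, covariates and left-out libraries were alternatives. The fit was checked on simulated data. Exon lengths and Gsdmc sequences came from GENCODE M21, aligned with MAFFT 7.526.

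The members and gene lists were chosen with earlier results of these data known. Named are the members, the listed pathway genes that average 10 counts or more, 7 listed genes below that (Nlrp3, Nlrp12, Mefv, Il1a, Il1b, Il33 and Il36g), named after their values were seen, and the 5 genes most like Il18 or the summed Gsdmc members that average 50 counts or more. Some genes of the list first drawn up are not reported here. The relations with Hoxb13 and with mitochondrial-like rows, the Hoxb13 covariate and the fits without 3 libraries were added after the data were seen.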

Additional observations from a re-analysis of the deposited data

Results flagged for a closer look

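In groups of 6 libraries, 9 of 88 gene and genotype combinations had 1 library apart from the rest, judged by the gap to its neighbour over the whole range (Dixon's criterion for 6 values). For normally distributed values about 1 in 20 such groups would be marked by chance. CPM on a linear scale need not follow that distribution, so 9 of 88 is not read as an excess. All 9 marked values lay above the others of their group. Among the members these were Gsdmc2 in wild type replicate 3, at 1396 CPM against 162 to 536 CPM in the other 5, Gsdmc2 in Sgo1-/+ replicate 3, at 1126 CPM against 141 to 479 CPM, and Nlrc4 in Sgo1-/+ replicate 3, at 70.7 CPM against 38.3 to 45.9 CPM. Both libraries are rich in mitochondrial-like rows, at 38.8% and 37.7% of counts, and the part of this in the values was not tested.

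Of the wider list, Pydc4 was at 152 CPM in Sgo1-/+ replicate 3 against 0.826 to 30.6 CPM, and Casp12 at 6.33 CPM in Sgo1-/+ replicate 6 against 0.231 to 1.98 CPM. Gbp3 was at 7.90 CPM in wild type replicate 1 against 0.503 to 2.60 CPM, and Il1rl1 at 5.33 CPM in wild type replicate 5 against 1.30 to 2.76 CPM. Casp8 was at 111.5 CPM in wild type replicate 4 against 73.1 to 86.7 CPM, and Il18r1 at 8.39 CPM in Sgo1-/+ replicate 1 against 3.76 to 5.15 CPM.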

How the results depend on the processing

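No member and no gene of the wider list was called in any of the 22 alternative edgeR, DESeq2 or voom fits, while over all genes the calls went from 0 to 30 in DESeq2 and to 1 with the share of mitochondrial-like rows as a covariate. Il18, Casp4, Nlrc4, Gsdmc3 and Gsdmc4 kept the sign of their log2 change in all 22. With library totals only, Casp1 changed by 0.23, Nlrp6 by 0.20, Gsdmd by 0.18 and Gsdmc2 by 0.35, and the differences in mean log2 CPM were 0.30 for Casp1, 0.26 for Nlrp6 and 0.20 for Gsdmd, beside the shift of all genes by 0.32. With the share of mitochondrial-like rows in the model, Pycard changed by -0.016 and Gsdmc2 by 0.87. Gsdmc2 changed by 0.31 with the Hoxb13 covariate, 0.018 in limma-voom, 0.52 without the 3 rich libraries, and 0.54 without the 3 highest in adipocyte markers. Within libraries that lack the column suffix the difference in mean log2 CPM was 0.15 for Casp1 and 0.026 for Nlrp6, and within those that carry it -0.31 for Il18 and -0.062 for Gsdmc2. The cause of these turns was not tested.

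Replicate numbers did not pair the samples: same-numbered libraries correlated at -0.30 to 0.45 in their deviations from the genotype means, and 1 of 12 libraries correlated best with its own number. With the replicate block, Gsdmc2 changed by 0.0042 and 0 members were called.

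Leaving out 1 library gave edgeR changes of 0.37 to 0.79 for Il18, -0.17 to 0.0071 for Casp1, -0.91 to -0.23 for Casp4, -0.19 to 0.031 for Nlrp6, -0.47 to -0.21 for Nlrc4, 0.061 to 0.24 for Pycard, -0.20 to -0.078 for Gsdmd, -0.53 to 0.67 for Gsdmc2, 0.42 to 0.73 for Gsdmc3 and 0.37 to 0.76 for Gsdmc4. Differences in mean log2 CPM ran from -0.17 to 0.039 for Casp1, -0.19 to 0.039 for Nlrp6, -0.46 to -0.24 for Nlrc4, and -0.31 to 0.42 for Gsdmc2. For Nlrc4 the value without Sgo1-/+ replicate 3, -0.46, had an exact permutation p of 0.00433, against 0.0801 over all 12. That p was the lowest of the members in these runs and was not adjusted, and the edgeR adjusted p there was 0.138.

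The members' means ran from 336 counts for Il18 to 3095 for Gsdmc4, with 61.3 in the shallowest Il18 library. How far depth, the spread between libraries or their number limits the calls was not tested.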
